A study of Drosophila melanogaster with 64 samples.

Results

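Adult testes of 5 male-sterile Drosophila melanogaster lines (BM1, BM5, BM6, BM24 and BM46) were compared with those of 3 fertile lines (the parental stock, BM4 and BM21), with the line as the replicate. The libraries of a line were summed, and only adult libraries of at least 1000000 counts were used. This kept 29 of 32 adult libraries, out of 64 in the whole series: 17 from sterile and 12 from fertile lines. The 3 left out held 20387 counts (BM6 replicate 3), 233047 counts (BM24 replicate 2) and 43347 counts (BM24 replicate 3), so that BM24 rests on 2 libraries and BM6 on 3.

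Each line except the parental stock carries its own reciprocal translocation between the X and chromosome 2, named T(1;2)BM1, T(1;2)BM4 and so on. All 8 lines, the controls included, share an X with the duplication Dp(1;1)scV1 and the alleles y2, y+, sc+ and scV1, together with su(wa), wa, cv, v and f (the labels print the letter y of these names as a gamma). The parental stock is labelled as irradiated and has no translocation. Sterile lines were kept with females carrying FM7i, P{ActGFP}JMR3, and the fertile lines and the parental stock with C(1)M4, y females, so sterility and the stock's females cannot be told apart. Males were 1 to 5 days old, and each library was made from a pool of 20 testes separated from the seminal vesicle. A line stands for 1 translocation.

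In the Drosophila testis, germ cells divide as spermatogonia, grow as spermatocytes that transcribe most genes needed for sperm, pass through meiosis and then elongate as spermatids within a pair of somatic cyst cells. A sheath of muscle and pigment cells on a basement membrane surrounds the organ. Males with a translocation between the X and a large autosome are often sterile, which has made such rearrangements a classical tool for asking how the male X is regulated in the germline. The comparison of sterile with fertile translocations asks which transcripts go with sterility, given that all translocation lines have a broken X. The fertile class used here also holds the parental stock, which has no translocation, so a broken X is not the same in both classes.

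Depth was 2971832 to 24650332 counts per library and 35307124 (BM24) to 67466603 (BM4) per line sum. Levels are given as counts per 1000000 (CPM) scaled by TMM, a factor that aligns the bulk of genes between lines. It was 0.953 (BM1) to 1.012 (BM24) in sterile and 1.014 (parental stock) to 1.055 (BM4) in fertile lines. The factors thus did not overlap between the classes, and small changes depend on this scaling. Genes that define the tissue were abundant in every line: summed over the list, spermatid differentiation genes reached 17200 to 22470 CPM and the postmeiotic cup and comet genes 6438 to 7818 CPM. In these bulk samples, fewer cells of a type and less RNA per cell cannot be told apart. The labels do not say that the pools of a line came from separate crosses. RNA of the accessory gland, which lies beside the testis, was high in 7 libraries (replicate 4 of BM21, 1 and 2 of BM6, 2 and 3 of BM4, 1 and 4 of BM1), and BM46 replicate 1 stood apart for fat body genes. Without the 7 libraries 452 genes were called, and without BM46 replicate 1 the number was 397.

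Of 13595 genes tested, 379 (2.79%) differed between sterile and fertile lines at an adjusted p under 0.05 in edgeR's quasi-likelihood test: 204 (1.5%) were higher and 175 (1.29%) lower in sterile lines. Higher genes changed more, with a median of 1.34 on the log2 scale against 0.74 for lower genes. A change of 3 or more on that scale was seen in 30 higher and 19 lower genes, and 77 higher and 115 lower genes changed by less than 1. The plot of change against level shows the large changes mostly among genes of low level. Scaled by library size alone, 175 genes were higher and 307 lower (36.3% higher against 53.8%), while the median of all genes moved from 0.02 to −0.06.

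**Figure D1:**
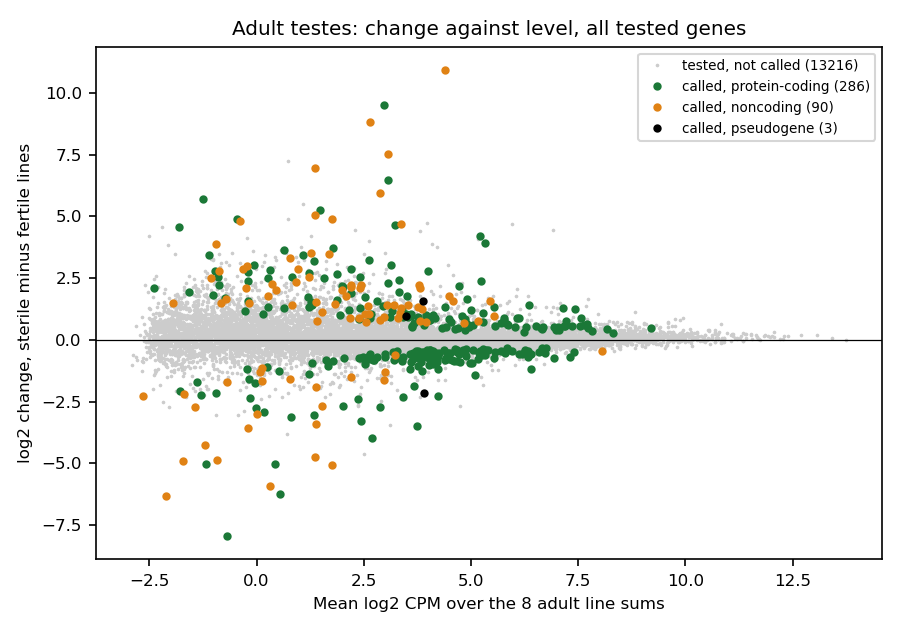
Log2 change between sterile and fertile lines (y axis) against the mean log2 CPM of the 8 adult line sums (x axis) for all 13595 tested genes, with the 379 called genes in colour by gene type (286 protein-coding, 90 noncoding, 3 pseudogenes). Changes over 3 lie mostly at low levels, and of the 47 called genes with a mean log2 CPM of at least 6, 43 changed by less than 1 and 4 by more.

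The count of called genes depended on single lines. Leaving out BM4 gave the lowest count (109), followed by BM21 (150), BM6 (178), BM5 (186), the parental stock (193), BM46 (207) and BM1 (215), while 378 genes were called without BM24. With the row letter of the sample labels, which read as positions in a plate, as a covariate 36 genes were called, of which 25 were among the 379. The parental stock and BM46 each had a row letter of their own, so that fit draws the class difference from the other 6 lines. Among the 64 genes chosen by rule for this account (the largest changes, the most abundant genes and the called members of gene lists), 13 kept an adjusted p under 0.05 in edgeR, DESeq2 and limma voom, with each line left out and with every other setting tried except the stricter threshold of 0.01. These were Trf5, asRNA:CR46044, CG9616, lncRNA:CR43882, lncRNA:CR44138, lncRNA:CR44485, Apoltp, CG43707, CG14369, nompC, CG11034, Gr28a and DNApol-epsilon255.

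Trf5, at 2L:2695330-2696437, had the lowest p of all genes. Its level was 60.7 CPM in BM1, 50.0 in BM5, 64.6 in BM6, 46.6 in BM24 and 63.3 in BM46, against 3.39 in the parental stock, 3.26 in BM4 and 2.57 in BM21. All sterile lines thus lay far above all fertile lines, and the class means were 57.0 ± 8.18 CPM (SD, n = 5) and 3.08 ± 0.44 CPM (SD, n = 3). The log2 change was 4.21 ± 0.18 (SE, adjusted p = 5.688e-05). A gene on the other strand overlaps Trf5, and since the strand setting of the counting is not known its counts carry that limit. The same holds for 20 of the 64 genes chosen by rule, Trf5 included, among them asRNA:CR46044, lncRNA:CR43882, lncRNA:CR44138, cdc14, SdhD, awd, Mul1, Rpt5, ND-49L, sprt, CG31935, Argl and JhI-26.

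CG11034 (2L:5805395-5809063) was higher in the same way. BM1 had 22.4 CPM and the other sterile lines 12.2 to 13.6 CPM, against 0.713 in the parental stock, 0.464 in BM4 and 0.593 in BM21. The change was 4.64 ± 0.30 (adjusted p = 0.0005273). In larvae late in the third instar (L3), the same lines gave a log2 change of 0.24 ± 0.70 (adjusted p = 0.877), but the difference between the stages did not pass the interaction test (4.15 ± 0.84, adjusted p = 0.171).

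The gene pair CG43291 and CG9616 lies 126 bp apart on the minus strand of 3R, and its members moved in opposite directions. CG9616 (3R:14244804-14245471) was at 16.9 CPM in BM1, 21.0 in BM5, 11.9 in BM6, 11.2 in BM24 and 5.57 in BM46, and at 0.204 in the parental stock, 0.112 in BM4 and 0.130 in BM21. The change was 6.48 ± 0.55 (adjusted p = 0.001648). CG43291 (3R:14234984-14244677), named here because of its neighbour, was at 4.36, 2.01 and 4.70 CPM in the parental stock, BM4 and BM21 and at 0.0185 to 0.140 CPM in the sterile lines (−6.26 ± 0.61, adjusted p = 0.002295). Neither gene's lines overlapped between the classes.

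CG14369 and lncRNA:CR43453 were almost absent from fertile testes. CG14369 (3R:13591632-13592657) had 3241 counts in the sterile lines together and 3 in the fertile lines, a ratio of 851 with a 95% counting interval of 291 to 4131. The noncoding RNA lncRNA:CR43453 (3R:21465701-21466492) had 8545 and 3 counts, a ratio of 2245 (768 to 10890). Its level ran from 8.87 CPM in BM5 to 57.0 CPM in BM46, so the sterile lines differed among themselves by more than for Trf5. These intervals cover counting error only.

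Long noncoding RNAs made up many of the genes that were higher in sterile lines. Of 1175 lncRNA genes tested, 58 were higher and 20 lower in sterile lines, where 1.5% and 1.29% of all genes were. The median change over the lncRNA genes tested was 0.35, where all genes had a median of 0.02. Over all noncoding genes 90 of 1579 (5.7%) were called, over protein-coding genes 286 of 11806 (2.42%), of which 137 were higher and 149 lower. Noncoding genes had lower levels (median log2 CPM 0.96 against 4.0), and a called noncoding gene had changed by a median of 1.86 against 0.81 for protein-coding genes. Among antisense RNA genes, 7 of 381 tested were higher and 5 lower, beside the same shares of all genes (1.5% and 1.29%). Of the 90 called noncoding genes 27 overlap a gene on the other strand, and their counts carry the limit given for Trf5.

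Among the largest rises in noncoding RNAs, lncRNA:CR43882 (3L:4745911-4746632) was at 8.10 to 17.5 CPM in sterile and 0.126 to 0.304 CPM in fertile lines (5.92 ± 0.44, adjusted p = 0.001157). Its neighbour lncRNA:CR45983, 600 bp away on the other strand, was higher as well (3.29 ± 0.44). lncRNA:CR44643 on 2R reached 31.4 CPM in BM6 and 22.2 CPM in BM5 but 7.19 and 6.44 CPM in BM24 and BM46, and the fertile lines had 0.424 to 0.810 CPM. lncRNA:CR44547 differed in only 4 of the 5 sterile lines: BM1, BM5, BM6 and BM24 had 4.24 to 6.23 CPM and BM46 had 0.0738 CPM, close to the 0.0141 to 0.0509 CPM of the fertile lines. lncRNA:CR43451, lncRNA:CR46088, lncRNA:CR44941 and lncRNA:CR44735 also rose, by 4.91 to 8.82, with no overlap between the classes.

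The noncoding RNA with the lowest p among those that fell was asRNA:CR46044 (3R:20588003-20588549), which overlaps a gene on the other strand. The fertile lines had 8.25 (parental stock), 9.81 (BM4) and 7.49 CPM (BM21), and the sterile lines 0.148 to 0.336 CPM (−5.05 ± 0.26, adjusted p = 0.0001543). lncRNA:CR44138 was uneven among the fertile lines, at 11.9 CPM in the parental stock, 4.36 in BM4 and 2.94 in BM21, while the sterile lines held 0.112 to 0.406 CPM. lncRNA:CR44080 and lncRNA:CR44485 fell by 2.68 and 1.93. lncRNA:CR42850, the most abundant of the genes named as lower, went from 316 ± 26.3 CPM (SD, n = 3) to 232 ± 20.1 CPM (SD, n = 5; −0.45 ± 0.09, adjusted p = 0.0439). Its call was lost in 9 of the alternatives tried, the stricter threshold left aside.

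Among the protein-coding genes that fell was DNApol-epsilon255, the catalytic subunit of the replicative DNA polymerase epsilon. The parental stock had 26.1 CPM, BM4 23.0 and BM21 14.6, and the sterile lines had 3.62 (BM1), 4.95 (BM5), 3.80 (BM6), 4.40 (BM24) and 4.65 CPM (BM46). The sterile lines were close to each other and all below BM21, the lowest fertile line (−2.31 ± 0.19, adjusted p = 0.00161). Also lower were GILT3, of a family of lysosomal thiol reductases (−2.73 ± 0.45, adjusted p = 0.0235), and Argl, the argininosuccinate lyase gene (−1.86 ± 0.27, adjusted p = 0.0126).

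CG43707 (2L:3757256-3769525) fell from 11.5 to 13.4 CPM in fertile lines to 0.980 to 1.69 CPM in sterile lines (−3.29 ± 0.20, adjusted p = 0.0004433). CG2772, CG42828, CG15563 and CG5639 were lower by 2.38 to 3.99, and the pseudogene CR43142 by 2.14. In a pair of these genes a single fertile line sat near the sterile ones. sprt was at 13.6 CPM in BM4 and 10.2 in BM21 but 1.6 in the parental stock, beside 1.20 to 1.47 CPM in sterile lines. CG31935 was at 63.7 CPM in the parental stock and 38.1 in BM21 but 9.89 in BM4, beside 6.68 to 8.60 CPM.

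**Figure D2:**
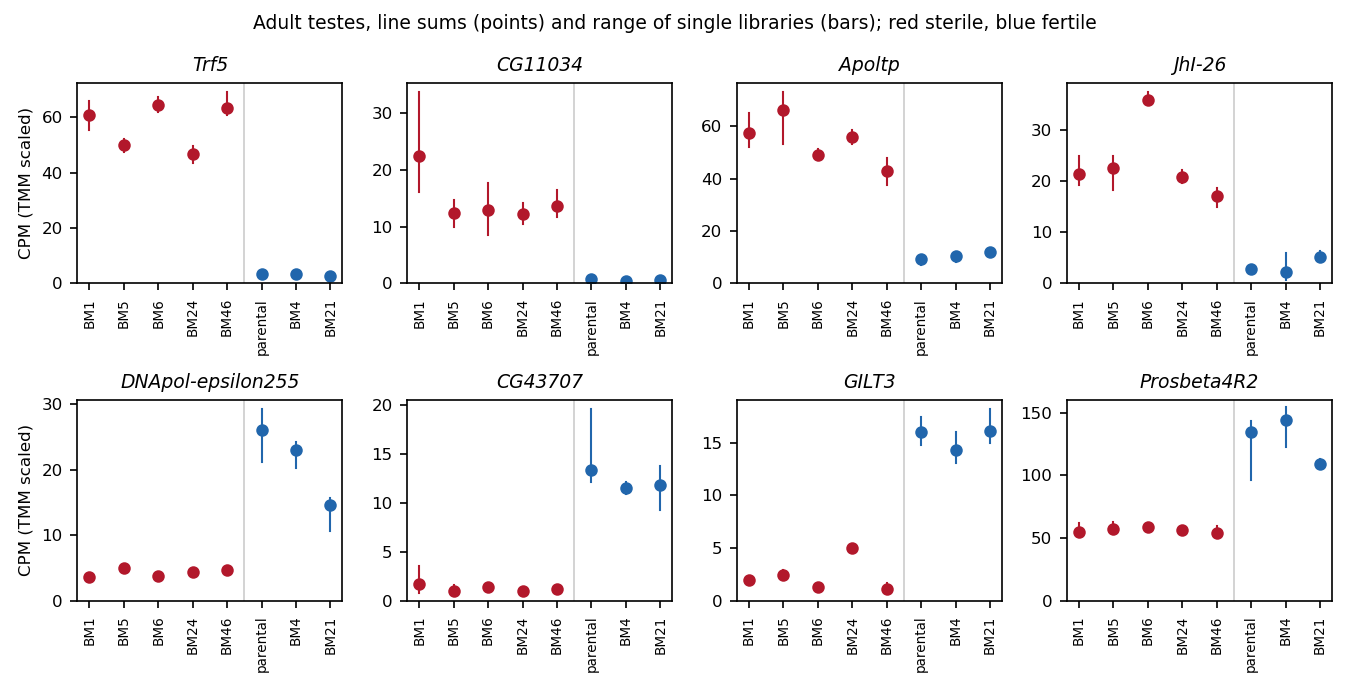
CPM (TMM scaled, y axis from 0) of 8 genes in each adult line (x axis); points are the line sums, bars run from the lowest to the highest single library of the line, red lines are sterile and blue fertile. The upper row shows genes higher in sterile lines (Trf5 at 46.6 to 64.6 against 2.57 to 3.39 CPM) and the lower row genes lower in them (Prosbeta4R2 at 53.7 to 58.9 against 109 to 144.5 CPM).

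Genes of high level changed less, and those named here were chosen for having no overlap between the classes' lines. cdc14, a phosphatase that acts on substrates of cyclin-dependent kinases, was at 613 to 711 CPM in sterile and 450 to 490 CPM in fertile lines (0.49 ± 0.07, adjusted p = 0.0159). Energy metabolism was represented by SdhD, a membrane subunit of succinate dehydrogenase (211 ± 11.8 against 143 ± 3.45 CPM, 0.56 ± 0.07, adjusted p = 0.00682), and Fum4, a fumarase paralog (0.37 ± 0.08). awd, the nucleoside diphosphate kinase (0.62 ± 0.12), Mul1, a mitochondrial ubiquitin ligase (0.46 ± 0.08), Grx1t, a glutaredoxin (0.62 ± 0.12), and Ctl2, of the choline transporter-like family (0.86 ± 0.15), rose as well. CG7794, CG8838 and CG14974 completed the 10 most abundant, at 0.29, 0.43 and 1.23. The calls of these 10 genes were lost in 1 (SdhD) to 12 (Fum4) of the alternatives tried, the threshold of 0.01 left aside.

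The abundant genes that fell included subunits of chaperones and of other protein complexes. CCT2 and CCT3, subunits of the chaperonin that folds actin and tubulin, changed by −0.32 ± 0.07 and −0.33 ± 0.07 (adjusted p = 0.0451 and 0.0495). Spag1, known in vertebrates as an assembly factor of ciliary dynein, changed by −0.48 ± 0.10, and ND-49L, a paralog of a complex I subunit, by −0.71 ± 0.12. dre4, which encodes the Spt16 subunit of the histone chaperone FACT, went from 106 ± 8.97 to 71.7 ± 7.04 CPM (−0.56 ± 0.10, adjusted p = 0.0272). CG3927 and CG6650 were also lower (−0.73 and −0.48). The calls of CCT2, CCT3, Spag1, ND-49L, dre4, CG3927 and CG6650 were lost in 6 (ND-49L) to 11 (CCT3, CG6650) of the alternatives tried. The stricter threshold was left aside in these numbers.

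Of 14 testis paralogs of proteasome subunits tested and of 32 ubiquitous subunits 1 each was called, where 2.79% of all genes were, so the count among the ubiquitous subunits is near the background. Prosbeta4R2, a testis paralog of the beta4 subunit on 2L, was at 54.7 CPM in BM1, 57.1 in BM5, 58.9 in BM6, 56.7 in BM24 and 53.7 in BM46, against 134.5 in the parental stock, 144.5 in BM4 and 109 in BM21 (−1.20 ± 0.09, adjusted p = 0.001195). The sterile lines were close to each other and well below the fertile range. The 13 other testis paralogs tested did not pass, among them Rpt6R (0.41 ± 0.12, adjusted p = 0.102), and the median over the 14 tested was 0.08. Among the ubiquitous subunits Rpt5, an ATPase of the regulatory particle, fell (−0.52 ± 0.10, adjusted p = 0.0427). The calls of Prosbeta4R2 and Rpt5 were lost in 1 and 9 of the alternatives tried, the stricter threshold left aside.

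The spermatogonial and the testis TAF and tMAC lists had 0 members called by edgeR. Since 2.79% of all genes were called, lists this short would hold few or no calls at that share. An unadjusted p under 0.05 in edgeR was common: 3025 of all 13595 tested genes had it. DESeq2 was run without edgeR's filter on low counts and called 1702 genes of a larger set. On the arms of chromosomes 2 and 3 that set held 13667 genes, against 11369 in edgeR. The DESeq2 counts for lists cover only members that edgeR tested. List counts here and below stand beside these numbers. Among spermatogonial genes 0 of 11 tested were called by edgeR, DESeq2 called 3 as lower and 3 had an unadjusted p under 0.05 in edgeR. The latter were bgcn, its partner bam, which ends the mitotic divisions, and the germline helicase gene vas, at −0.44 ± 0.12, −0.38 ± 0.12 and −0.44 ± 0.12 (edgeR adjusted p = 0.0817, 0.111 and 0.0912). Of 13 testis TAF and tMAC genes, which switch on the spermatocyte programme, 0 passed in edgeR, 6 had an unadjusted p under 0.05 and DESeq2 called 2 as lower; the median was −0.26. aly, a tMAC subunit, was at 35.8 ± 4.05 against 43.7 ± 3.65 CPM, and its lines overlapped.

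Genes transcribed later for sperm formation had small median changes. The medians were −0.08 over 13 meiotic genes, 0.08 over 17 spermatid differentiation genes, 0.02 over 15 cup and comet genes and 0.09 over 9 genes of sperm chromatin, and edgeR called 0 members of each. Unadjusted p-values under 0.05 numbered 4, 2, 0 and 2, and DESeq2 called 1, 1, 0 and 1. Mst77F, which packs sperm DNA, was at 2358 ± 124 CPM in sterile and 2005 ± 165 CPM in fertile lines (0.23 ± 0.08, adjusted p = 0.152). Scaled by library size alone the medians were −0.16, 0.01, −0.06 and 0.01 in the same order. That of the cup and comet genes thus changed sign. Of the spermatid differentiation genes 14 of 17 changes were positive with TMM and 10 with library size alone. Of the sperm chromatin genes 8 of 9 and 5 were. The latter list summed to 4668 to 5021 CPM in sterile and 4277 to 4544 CPM in fertile lines, without overlap.

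The 8 sperm leucylaminopeptidases, abundant proteins of sperm, had positive log2 changes throughout (median 0.18) with 0 called by edgeR, 1 at an unadjusted p under 0.05 and 0 called by DESeq2. Of 11 Y-linked fertility genes, several of which encode dyneins of the sperm tail, 0 were called by edgeR, 3 had an unadjusted p under 0.05 and DESeq2 called 2 as higher. Pp1-Y2, a Y-linked phosphatase gene, was at 57.1 ± 16.7 against 34.9 ± 2.48 CPM (0.71 ± 0.23, adjusted p = 0.129). These genes have close paralogs, which makes their counts uncertain.

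Several lists without calls in edgeR had many members with all sterile lines below all fertile lines. Over all genes 9.95% (1353) were placed so. Among these lists were the spermatogonial genes (3 of 11) and the testis TAF and tMAC genes (3 of 13) given above. Among 72 mitochondrial ribosomal protein genes 24 were placed in this way, with a median of −0.20, 23 had an unadjusted p under 0.05, edgeR called 0 and DESeq2 11. Their summed level was 1072 to 1250 CPM in sterile and 1243 to 1340 CPM in fertile lines. Among 28 piRNA pathway genes, which silence transposons, 6 were placed so (median −0.25; 10 at an unadjusted p under 0.05, 3 called by DESeq2), and among 17 genes of the DNA damage response also 6 (median −0.16; 10 and 5). In both edgeR called 0 and limma voom 1, and limma voom called 0 mitochondrial ribosomal protein genes and 0 members of each germline, sperm and Y-linked list above.

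The DNA damage list was mixed, with 6 of 17 changes positive and no member called by edgeR. Its lowest p was that of tefu, the Drosophila ATM kinase gene, which was at 34.2 ± 3.70 CPM in sterile and 50.2 ± 6.62 CPM in fertile lines (−0.55 ± 0.12, edgeR adjusted p = 0.0506). mre11 and rad50, which act with it at double-strand breaks, were at −0.64 ± 0.16 and −0.52 ± 0.13 (adjusted p = 0.0734 for both). nbs, the other member of their complex, lay the other way (0.29 ± 0.10, adjusted p = 0.148), and it and Corp were the 2 members with every sterile line above every fertile line. In the apoptosis list hid, an inducer of cell death, rose from 8.68 ± 1.89 to 16.3 ± 2.69 CPM (0.91 ± 0.19, adjusted p = 0.0451). It was the 1 called of 11 tested, where 2.79% of all genes were called. The call of hid was lost in 11 of the alternatives tried, the stricter threshold left aside. Scaled by library size alone, 0 members of the list were called higher and 2 lower. Without BM46 replicate 1 edgeR called 0 in either direction, and DESeq2 called 2 as higher and 2 as lower. Dark and Dronc, the core of the apoptosome, lay at −0.44 ± 0.10 and −0.39 ± 0.09 (adjusted p = 0.0545 and 0.0572).

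Muscle genes, which the sheath of the testis uses, held 2 called members of 26 tested, both higher in sterile lines, where 1.5% of all genes were called higher. They were bt, the giant kinase projectin (34.8 ± 3.76 against 23.5 ± 2.57 CPM, 0.57 ± 0.12, adjusted p = 0.0439), and Mlp60A, a muscle LIM protein gene (1.22 ± 0.26, adjusted p = 0.0493). In 9 of the 26 every sterile line lay above every fertile line, where 7.39% of all genes (1004) did, and the median was 0.62. The summed level was 1385 CPM in BM1, 1209 in BM5, 1246 in BM6, 1135 in BM24 and 1284 in BM46, against 1026 in the parental stock, 1012 in BM4 and 1063 in BM21. The classes did not overlap. In L3 testes 22 of these genes were tested, without Mlp60A, and their median was 0.04. The adult and L3 medians thus cover unlike sets of genes. bt and Mlp60A lost their call in 12 and 11 of the alternatives tried, and without the 7 libraries with much accessory gland RNA 1 of the 26 was called.

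Of 10 basement membrane genes tested 2 laminin genes were called, both higher (1.5% of all genes were), while the summed level of the list overlapped between the classes (249 to 389 CPM in sterile, 227 to 285 CPM in fertile lines). LanB2, the gamma chain, was at 16.1 to 20.9 CPM in sterile and 9.33 to 11.1 CPM in fertile lines (0.75 ± 0.12, adjusted p = 0.0206), and LanB1, the beta chain, changed by 0.42 ± 0.09 (adjusted p = 0.0440). LanA, the alpha chain, was at −0.38 ± 0.23 (adjusted p = 0.360). Among 18 genes of the hub and cyst cells, the somatic niche and partners of the germ cells, edgeR called 0, DESeq2 called 3 and 3 had an unadjusted p under 0.05 in edgeR. Among the latter ptc, the hedgehog receptor, was at 11.6 ± 1.35 against 8.97 ± 0.39 CPM, and Stat92E, the niche transcription factor, at 55.0 ± 3.05 against 63.9 ± 3.30 CPM.

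Markers of other tissues gave a mixed picture, and their part in the results above was not tested. The fat body list summed to 253 (BM6) to 449 CPM (BM1) in sterile and 189 to 239 CPM in fertile lines, but within BM46 the libraries ran from 224 to 1132 CPM. The median change of its 13 tested genes was 1.08, and 0.54 without BM46 replicate 1. Apoltp, a lipid transfer apolipoprotein and the called member of the list, did not vary in this way. Its BM46 libraries ran from 37.4 to 47.7 CPM, and by line it was at 57.5 CPM in BM1, 66.3 in BM5, 48.9 in BM6, 55.9 in BM24 and 43.0 in BM46, against 9.13, 10.3 and 11.8 CPM in the parental stock, BM4 and BM21 (2.38 ± 0.17, adjusted p = 0.0007941). The accessory gland list overlapped fully between the classes (57.1 to 4509 CPM in sterile, 60.7 to 750 CPM in fertile lines), and 0 of its 27 tested genes were called by edgeR, with 1 at an unadjusted p under 0.05 and 1 called by DESeq2. All 27 changes were positive, with a median of 1.33, and without the 7 libraries rich in this RNA the median was −0.64 over 23 tested. Hemocyte genes summed to 98.9 to 132 against 87.9 to 118 CPM and neuronal genes to 85.4 to 117 against 76.4 to 82.8 CPM, the latter without overlap.

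**Figure D3:**
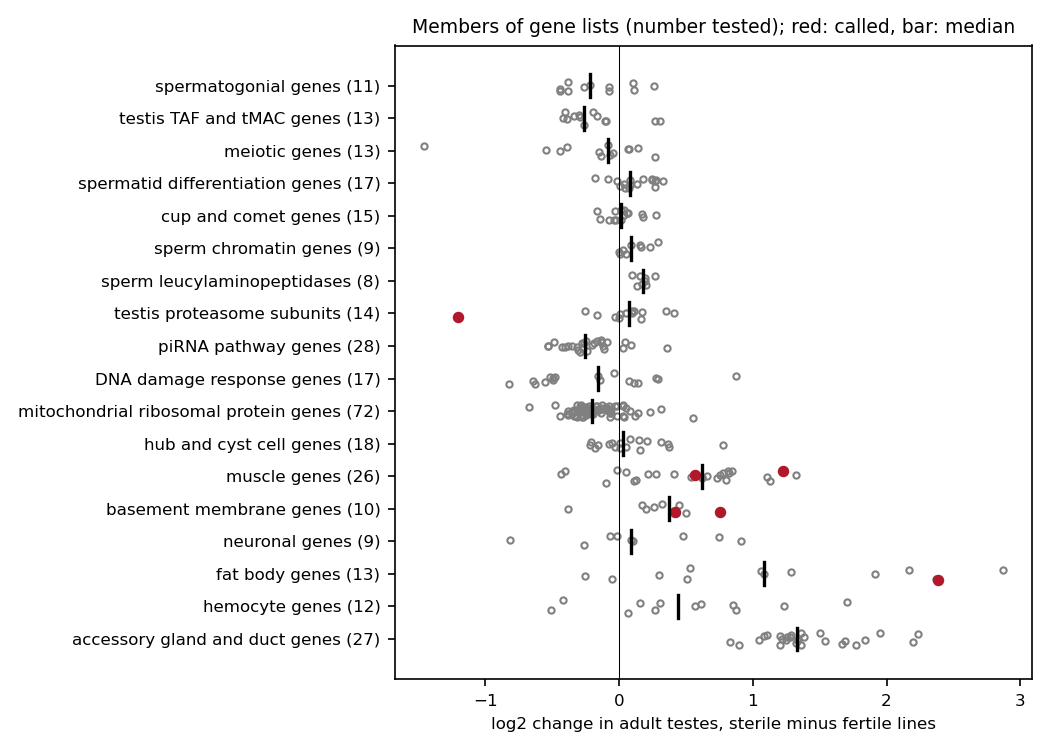
Log2 change between sterile and fertile adult lines (x axis) for the tested members of 18 gene lists (y axis, with the number tested). Open points are members that were not called, red points members with an edgeR adjusted p under 0.05, and black bars medians; the muscle median is 0.62 and that of mitochondrial ribosomal protein genes −0.20.

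Of 15 hormone response genes tested 1 was called, of 78 cytochrome P450 genes 2 and of 32 glutathione transferase genes 1, where 2.79% of all genes were, so the last pair of shares is near the background. JhI-26, inducible by juvenile hormone, was at 21.4, 22.6, 35.8, 20.7 and 17.0 CPM in BM1, BM5, BM6, BM24 and BM46, and at 2.83, 2.29 and 5.23 CPM in the parental stock, BM4 and BM21 (2.76 ± 0.35, adjusted p = 0.00801). GstE1, a glutathione transferase gene, rose by 1.19 ± 0.20, and the cytochrome P450 genes Cyp4ac3 and Cyp28d1 went apart (0.99 ± 0.17 and −2.92 ± 0.51), the latter with 4.63 CPM in the parental stock against 1.32 and 1.14 in BM4 and BM21. Amy-d, a digestive amylase gene, was at 43.9 to 81.9 CPM in sterile lines and at 0.458, 3.20 and 8.40 CPM in the parental stock, BM4 and BM21, but it has a near-identical copy (Amy-p) between which reads may be split.

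Of 93 chemoreceptor and odorant binding genes tested 4 were called, all of them receptor genes that rose, where 1.5% of all genes did. They were at low levels, at most 15.2 CPM in any line. The gustatory receptor gene Gr28a was at 2.36 to 4.19 CPM in sterile and 0.260 to 0.323 CPM in fertile lines (3.44 ± 0.27, adjusted p = 0.001195). Gr32a and Gr61a changed by 3.18 ± 0.37 and 3.22 ± 0.55, and Or85d had 156 counts in sterile and 2 in fertile lines, a ratio of 61.5 (16.7 to 512). nompC, a mechanosensory ion channel, rose from 0.396 ± 0.184 to 5.27 ± 1.02 CPM (3.72 ± 0.35, adjusted p = 0.00203). These genes are known for sensory neurons. The 9 neuronal genes tested had a median of 0.09, and the part of their summed level, which was higher in sterile lines as given above, in these changes was not tested.

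Further called genes were picked as examples after their values had been seen. Genes with like roles that were not called or that rose were not counted, so the examples say nothing of those roles as a whole. Among the lower genes were Ssrp, the partner of dre4 in FACT (54.5 ± 4.73 against 75.4 ± 4.70 CPM, −0.47 ± 0.09), Caf1-105, of the chromatin assembly factor CAF-1 (−0.45 ± 0.09), and polybromo, of a SWI/SNF-type remodeller (−0.83 ± 0.10). Su(var)3-9, which methylates histone H3 in heterochromatin (−0.69 ± 0.11), trx, a histone methyltransferase that keeps genes active (−0.60 ± 0.11), Tfb4, of the transcription factor TFIIH (−1.02 ± 0.10), and tbrd-3, of the testis bromodomain genes (55.7 ± 1.66 to 20.7 ± 4.23 CPM, −1.43 ± 0.16), were lower too. Their edgeR adjusted p-values were 0.00203 for Tfb4, 0.00444 for tbrd-3, 0.00645 for polybromo and 0.0205 to 0.0452 for the rest.

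Examples from both directions were picked in the same way. CCAP, a neuropeptide gene, was at 17.8 to 20.4 CPM in sterile and 8.51 to 9.90 CPM in fertile lines (1.01 ± 0.10, adjusted p = 0.0023). The receptor genes SIFaR, TkR99D and ETHR rose by 1.62, 1.29 and 1.03, and Dop1R2, a dopamine receptor gene, from 7 counts in fertile to 282 counts in sterile lines. RYa-R, the RYamide receptor gene, went the other way (2.03 ± 0.55 to 0.296 ± 0.113 CPM, −2.76 ± 0.36), as did GABA-B-R1 and GABA-B-R3 (−0.69 and −1.19). GABA-B-R3 was far higher in the parental stock (28.3 CPM) than in BM4 and BM21 (12.1 and 14.5 CPM).

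By chromosome, the called genes lay almost entirely on the autosomes. On the X, 6 of 2079 tested genes (0.289%) were called, against 370 of 11369 (3.25%) on the arms of chromosomes 2 and 3. Among these arms 2L had the highest share, with 119 of 2658 (4.48%), followed by 3R (3.24%), 2R (2.89%) and 3L (2.43%), and the small chromosome 4 had 3 of 96. On the Y, 0 of 22 tested genes were called by edgeR and limma voom. DESeq2, run without edgeR's filter on low counts, called 5 Y genes. On the mitochondrial genome edgeR and limma voom called 0 of 17 and DESeq2 also 0. X genes were measured at a similar level and precision (median log2 CPM 3.68 against 3.55, median standard error 0.17 on both).

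Of the 6 X genes, 1 was higher and 5 were lower. Uch-L5R, of a family of ubiquitin hydrolases, rose from 81.7 ± 4.05 to 111 ± 9.91 CPM (0.44 ± 0.09, adjusted p = 0.043). CCT2 fell as given above, and so did spri (−0.57 ± 0.10), the conserved nuclear factor gene e(r) (−0.44 ± 0.09), CG6927 (−1.58 ± 0.29) and w (−0.41 ± 0.09), the eye pigment transporter, of which all lines carry a mutant allele on the labelled X. In 11.8% of X genes all sterile lines lay on 1 side of all fertile lines, against 18.4% on the arms of chromosomes 2 and 3 and 17.3% over all tested genes (2357). The X had the lower share of called genes under every alternative tried: with DESeq2 it was 5.56% against 11.3%, and in the fit that holds the plate row 0 of 2079 against 36 of 11369 were called.

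**Figure D4:**
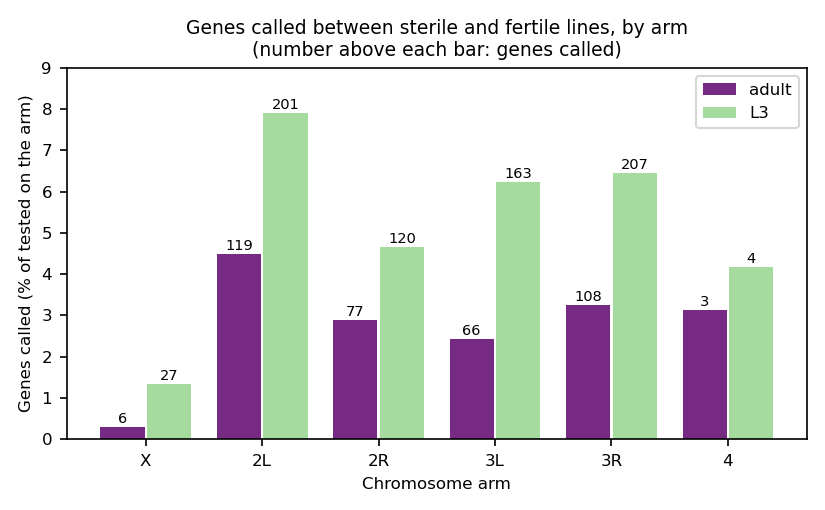
Genes called between sterile and fertile lines (edgeR adjusted p under 0.05), as a percentage of the genes tested on each chromosome arm (y axis), in adult and L3 testes; the numbers above the bars are genes called. Of the 6 arms drawn, which leave out the Y and the mitochondrial genome, the X has the lowest share at both stages, 0.289% in adults and 1.33% in L3, and 2L the highest, 4.48% and 7.91%.

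The share of all counts that came from the X was higher in every sterile line than in every fertile line. It was 12.1% in BM1, 11.7% in BM5, 12.3% in BM6, 11.9% in BM24 and 12.1% in BM46, against 9.85% in the parental stock, 10.9% in BM4 and 11.3% in BM21. The classes did not overlap, with means of 12 ± 0.22% (SD, n = 5) and 10.7 ± 0.73% (SD, n = 3). An exact two-sided permutation test over the 8 lines gave p = 0.0357 (the smallest possible is 0.0179), and 0.286 adjusted over the 8 chromosome arms and genomes examined, so the difference did not pass after adjustment. The median log2 change of single X genes was 0.05, against 0.01 on the arms of chromosomes 2 and 3.

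Called genes were at times neighbours. There were 29 pairs of called genes within 5000 bp of each other, 18 changing in the same direction and 11 in opposite directions, and 6 of the pairs overlapped. The same counts over all tested genes were not made. These numbers thus do not show whether called genes had more neighbours or more shared directions than other genes. On 2L, Elp3, MFS18 and CG15439 lie in a row and were all lower (−0.47, −0.61 and −0.91), and cdc14 and LanB1, 734 bp apart, were both higher. Idgf5, an imaginal disc growth factor gene, and GstE1 on 2R, 3110 bp apart, rose together (2.88 and 1.19), while SdhD and Rpt5 on 3R, 4859 bp apart, went in opposite directions.

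The L3 libraries of the same lines offer a look at the adult genes in other animals, though with the same genotypes. Of 13132 genes tested in L3, 726 (5.53%) were called, 428 higher (3.26%) and 298 lower (2.27%) in sterile lines. Of the 379 adult genes 372 were tested in L3, and 369 of these (99.2%) had the same direction there, where 75.1% of all 12824 genes tested at both stages did. In L3, 198 of them were called again in the same direction (52.2% of the adult calls and 27.3% of the L3 calls) and 0 in the opposite one. The 3 genes with another sign in L3 were CG8545, CG43897 and nkd, whose L3 changes did not pass (0.03, −0.42 and −0.50, edgeR adjusted p = 0.918, 0.276 and 0.372).

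CG9616 was also called in L3 with a change close to the adult one (6.28 ± 0.59), as were Apoltp (2.74 ± 0.26 in L3), Gr28a (2.90 ± 0.23) and RYa-R (−2.98 ± 0.22). Others did not pass in L3: awd was at 0.08 ± 0.11 in L3 (adjusted p = 0.711), Mul1 at 0.19 ± 0.09 (0.276) and hid at 0.54 ± 0.18 (0.112). No difference between the stages was called for any gene by edgeR. Of 13994 genes tested in the interaction of stage and class 0 passed and 1515 had an unadjusted p under 0.05. DESeq2, run without edgeR's filter on low counts, called 195. In the interaction DNApol-epsilon255 came nearest of the genes named here (−1.02 ± 0.14, adjusted p = 0.0626), with L3 changes of −1.31 ± 0.19 for it and 2.37 ± 0.32 for Trf5.

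**Figure D5:**
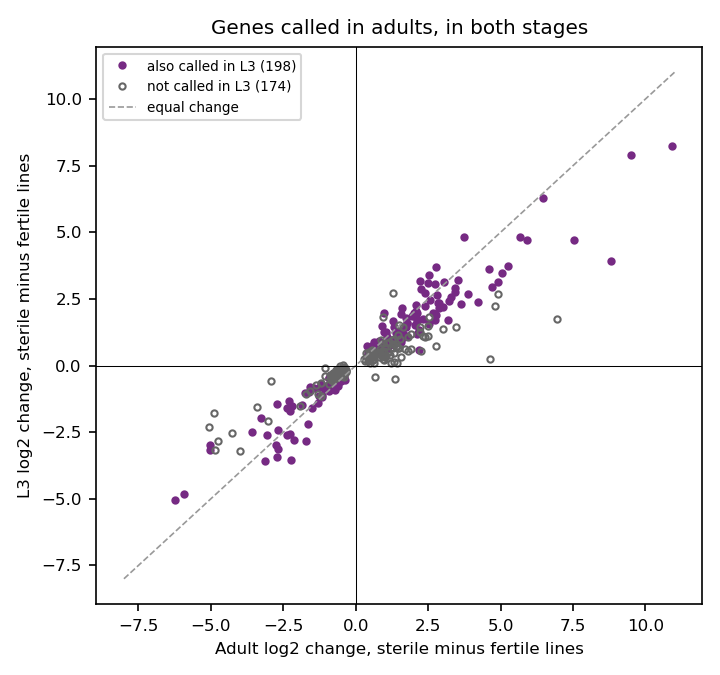
Log2 change between sterile and fertile lines in L3 (y axis) against that in adults (x axis) for the 372 adult called genes tested at both stages; filled points were also called in L3 (198), and the dashed line marks equal change. Nearly all points (369) lie in the quadrants of equal sign.

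The sterile lines were not uniform. Among called higher genes with a mean log2 CPM of at least 1, the highest sterile line exceeded the lowest by a median of 1.53 times (163 genes), and among called lower genes by 1.29 times (143 genes), where the median over all 10422 genes at that level was 1.41. In 2 called genes, both noncoding and both lower, the lines of the classes overlapped: lncRNA:bxd and lncRNA:CR43421, each low in the parental stock (0.153 and 0.747 CPM) and higher in BM4 (3.23 and 9.86 CPM) and BM21 (2.34 and 7.03 CPM). Of the 64 genes chosen by rule, 50 also had no overlap between single libraries of the classes. For 51 of the 64 the rule itself required no overlap of line sums, so this count follows in part from the choice. The share of all genes without overlap of single libraries was not counted.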

How the data were processed

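Poly(A) RNA of adult testis pools was sequenced as stranded 50 bp single-end reads from 350 ng of RNA, per the labels' protocols. The submitters' processing notes name bcl2fastq 1.8, cutadapt, HISAT2 2.1.0 and featureCounts 1.6.1. The authors deposited raw counts, 1 value per gene and library. Genome build and strand setting were not given in the sources used here. Of 17606 genes listed, 17494 had the same position in Ensembl BDGP6, and 6542 overlap a listed gene on the other strand. Coordinates are those of the count table.

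Adult libraries of at least 1000000 counts were summed per line and fitted with edgeR 4.0.16 in R 4.3.3 (TMM, filterByExpr, quasi-likelihood F test, Benjamini-Hochberg adjusted p under 0.05). Genes are called where they pass this threshold. Changes are log2, sterile minus fertile, with standard errors, and adjusted p-values are edgeR's unless another tool is named. The stage by class interaction used 16 line sums with the line as a block. DESeq2 1.42.0 and limma 3.58.1 (voom) were alternatives, and the fits were tested on simulated data. DESeq2 was run on all genes with a count, without edgeR's filter. None of 40 pairs of adult libraries within lines was identical (chi-square per degree of freedom 3.475 to 60.7). Replicate numbers were not treated as pairs. P-values measure the spread between these lines, except in the alternative fits with libraries as replicates.

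Genes were named by a rule: an adjusted p under 0.05, no overlap between the classes' lines and a mean log2 CPM not below 1, then the 15 largest changes each way, the 10 most abundant others each way, and called members of the gene lists at any level. The lines, lists and rule were chosen with earlier results of these data known. Lists hold only the members that passed the filter on low counts, so no test was made over a list.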

Additional observations from a re-analysis of the deposited data

Results flagged for a closer look

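In 5 of the 64 genes named by rule, 1 sterile line stood apart from the other 4: its gap to the nearest line, as a share of the range of the 5 lines, exceeded Dixon's critical value of 0.71. Chance alone flags about 1 in 20 such groups. CG11034 was at 22.42 CPM in BM1, where the next line had 13.64 CPM. The pseudogene CR43142 was also highest in BM1, at 10.57 CPM with the next line at 6.312 CPM. CG5639 was at 3.876 CPM in BM46 and at most 1.834 CPM in the other sterile lines. A single library carries this: BM46 replicate 1 had 11.73 CPM, within the 6.70 to 13.36 CPM of the fertile libraries, and the other 3 had 1.311 to 1.751 CPM. Without it the log2 change of CG5639 was −2.77 in place of −2.38. dre4, the FACT subunit gene, was at 83.98 CPM in BM24, which rests on 2 libraries, and at most 69.88 CPM in the others. Or85d was at 1.671 CPM in BM5 and at most 0.6218 CPM in the others. CG11034, CR43142, CG5639 and dre4 were named by a rule that required no overlap of line sums between the classes. That their outlying line sums did not reach the fertile lines was thus fixed in advance. Or85d came from a list, and BM5 lay farther from the fertile lines than the other sterile lines did. The causes were not tested.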

How the results depend on the processing

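No named gene changed direction under any alternative. Of 379 called genes (204 higher, 175 lower), DESeq2 gave 1702 (856 and 846), the threshold of 0.01 gave 74 (45 and 29) and the plate row as a covariate 36 (17 and 19). Libraries as replicates gave 7617 (3657 and 3960), and the replicate block on top 7549 (3626 and 3923). Both of these fits take their error from pools within a line, although the label belongs to the line. Their p-values therefore do not measure the spread between lines. Numbers do not pair libraries: over 92 pairs with the same number the median correlation of deviations was −0.000253, and 7 of 29 libraries correlated best with their own number. Library-size scaling gave 307 lower genes. Leaving out 1 line, or BM46 replicate 1 (a choice made after seeing the data), gave 109 to 397 called, 65 to 220 higher and 44 to 198 lower. In L3, DESeq2 called 1469 genes and fits without 1 line 404 to 851, against 726. The interaction gave 195 genes in DESeq2, and 0 to 4 without 1 line: PIP5K59B, nahoda, DNApol-epsilon255 and Trf5 without BM5, and CG14069, Ndae1, CG42613 and lncRNA:CR44674 without BM21. Of the 64 named genes, 64 kept their call in DESeq2, 53 in limma voom, 58 under library-size scaling, 51 without the filter and 16 with the plate row. The causes of these differences were not tested. BM24, with 2 libraries, and a fertile class of 3 lines limit the precision.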

Other observations

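Other gene groups held few or no genes called by edgeR in adult testes, where 2.79% of all genes were called. Over all 13595 tested genes, 3025 had an unadjusted p under 0.05. DESeq2 called 1702 genes of a larger set, taken without edgeR's filter on low counts. Of 91 cytoplasmic ribosomal protein genes edgeR, DESeq2 and limma voom each called 0 (2 at an unadjusted p under 0.05), with a median log2 change of −0.06, although their summed level varied from 10930 CPM to 16430 CPM among the sterile lines. Among 79 genes of oxidative phosphorylation SdhD rose and ND-49L fell, and the median was 0.00. Of 8 dosage compensation genes edgeR and limma voom called 0 (2 at an unadjusted p under 0.05) and DESeq2 called 1 as lower. The median of these genes was −0.17, 6 of the 8 changes were negative, and in 3 of the 8 every sterile line lay below every fertile line, where 9.95% of all genes did. Their summed level was 214 to 240.5 CPM in sterile and 241 to 268 CPM in fertile lines, with no overlap. mle, the helicase of that complex, was at 50.4 ± 5.54 CPM in sterile and 67.9 ± 6.48 CPM in fertile lines (−0.43 ± 0.11, edgeR adjusted p = 0.0749).

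Stress and immune genes held no calls in edgeR. Of 14 heat shock genes tested 0 were called by edgeR and limma voom and 1 by DESeq2 (3 at an unadjusted p under 0.05), and of 10 antimicrobial peptide genes 0, 0 and 1 (1 at an unadjusted p under 0.05). Hsp23, a small heat shock protein gene, was at 268 ± 47.6 CPM in sterile and 186 ± 5.87 CPM in fertile lines (0.52 ± 0.14, edgeR adjusted p = 0.0867). Of 48 cuticle protein genes tested edgeR called 0, limma voom 2 and DESeq2 8 (13 at an unadjusted p under 0.05), and the median was 0.55 at low levels. Cpr51A, the highest of those with a low p, was at 10.8 ± 2.92 against 4.27 ± 1.13 CPM (1.34 ± 0.29, edgeR adjusted p = 0.0506). Among 12 genes of lipid transport and storage, of which Apoltp was called, NLaz, a lipocalin gene, was at 54.3 ± 16.5 against 33.8 ± 5.71 CPM (0.68 ± 0.24, edgeR adjusted p = 0.147). The 24 UDP-glycosyltransferase genes and 3 scpr genes tested gave 0 calls in edgeR, DESeq2 and limma voom (1 and 0 at an unadjusted p under 0.05).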
